A study of Mus musculus with 16 samples.

Results

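The Regnase family comprises RNases that share a PIN-like nuclease domain, and 6 genes of the family and its closest relatives were followed here out of 52542 genes counted in single mouse bone marrow cells. They were taken by name and not by their measured values, though with earlier results of these data known. The 6 genes were Zc3h12a (encoding Regnase-1), Zc3h12b (Regnase-2), Zc3h12c (Regnase-3), Zc3h12d (Regnase-4), N4bp1 and Khnyn. Regnase-1 binds short stem-loops in the 3′ untranslated regions of mRNAs for cytokines and NF-kB regulators and cuts those mRNAs, its own among them. The protease MALT1 cleaves it after antigen receptor signals, and IKK marks it for destruction after Toll-like receptor signals, which releases its targets. N4BP1 is a related RNase that restrains NF-kB signalling, and KHNYN works with the zinc finger antiviral protein on CpG-rich RNA.

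The cells were LSK cells (lineage-negative, Sca1+, Kit+), the part of the marrow in which blood stem cells and multipotent progenitors are found. They were sorted 4 weeks after lethally irradiated CD45.1/CD45.2 hosts had received fetal liver cells of 2 kinds in equal parts, control cells (CD45.1) and cells lacking both Regnase-1 and Regnase-3 (CD45.2), with C57BL/6J as the stated strain. The sources used here give neither the hosts' age and number nor the knocked-out exons, and they assign no genotype to any library or well. All 16 libraries therefore form 1 group, knockout was not compared with control, and all values below are over an unknown mixture of both.

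Each library was a plate of 384 wells processed by MARS-seq, which tags the 3′ end of each mRNA molecule with a unique molecular identifier (UMI). A well was kept as a cell at 500 or more UMIs and under 20% mitochondrial UMIs, which left 5157 cells and 10437310 UMIs, with 295 to 345 cells and 500092 to 810096 UMIs per library. Levels are given as CPM, the UMIs of a gene per 1000000 UMIs of the cells concerned. They are not divided by gene length, because a molecule is tagged once, at its 3′ end. The 5 LSK identity genes summed to 1174 to 1486 CPM in every library. T and NK cell markers reached at most 6.38, with Cd3e and Cd3d at 0, and endothelial and stromal markers at most 11.998. Markers of other mature cells were found in every library. Red cell and platelet genes summed to 106 to 378 CPM, and mast cell and basophil genes to 23.6 to 72.7. Mature B cell genes summed to 23.2 to 57.9, and mature neutrophil and macrophage genes to 10.5 to 35.7. The source of these UMIs was not tested. No well name occurred in more than 1 library. Intervals cover counting error only.

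The genes lie on separate chromosomes of the GRCm38 (mm10) build. Zc3h12a is at chr4:125118423-125127840 on the minus strand, Zc3h12c at chr9:52111344-52168572 on the minus strand and N4bp1 at chr8:86808160-86885258 on the minus strand. Zc3h12b is at chrX:95711678-95932637, Zc3h12d at chr10:7832470-7870396 and Khnyn at chr14:55884947-55898775, all on the plus strand. The end of Khnyn overlaps Sdr39u1 on the opposite strand, which had 242 UMIs. The overlap lies outside the annotated 3′ untranslated region used here, but whether counting used strand is not given, so Khnyn values carry that uncertainty.

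Because the family is known for cutting stem-loops, the longest annotated 3′ untranslated region of each gene was searched on the mRNA strand for at least 6 perfect Watson-Crick pairs around a UAU or UGU loop. Such a hairpin occurred in 875 of 21020 genes (4.16%), in 1 of the 6 family genes and in 7 of 24 mRNAs listed as Regnase targets. The targets were collected from what is known of the family, so their count is not independent evidence. The hairpins of Zc3h12a itself and of the 4 hairpin-bearing targets with the most UMIs follow, written as DNA, 5′ to 3′, with the loop in capitals and the stem arms in lower case.
Zc3h12a: atttaaaTATtttaaat
Nfkbiz, first hairpin: ttgtttcTATgaaacaa
Nfkbiz, second hairpin: cactatTATatagtg
Tfrc: gacagtTATactgtc
Rel: aatggcTATgccatt
Nfkbid, first hairpin: gatttcTGTgaaatc
Nfkbid, second hairpin: tgtttcTGTgaaaca
The stem in Zc3h12a has 7 pairs, of which 0 are G-C, whereas each target stem printed here holds 2 or 3 G-C pairs. A match is a description of the letters only, and the sequences come from the GENCODE M21 transcripts.

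The study's knockout targets, Zc3h12a and Zc3h12c, were both found in each of the 16 libraries. Zc3h12a had 93 UMIs in all, with 1 UMI in the lowest library, a median of 5 and 11 in the highest. In CPM it ranged from 1.57 in LSK library 6 to 17.4 in LSK library 16, with a median of 8.86. Zc3h12c had 77 UMIs, from 2 to 12 per library with a median of 4. Its level ranged from 2.55 in LSK library 11 to 15.5 in LSK library 3, with a median of 6.34. Both libraries with the least Zc3h12a, LSK libraries 6 and 3, were the highest for Zc3h12c. These counts do not check the knockout: the genotype of the cells in each library is not known, and 3′ tags can still be made from an allele whose deleted exons lie elsewhere.

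Over the 16 libraries the levels of Zc3h12a and Zc3h12c had a Pearson r of -0.41 (permutation p = 0.113) and a Spearman rho of -0.32 (permutation p = 0.222), both two-sided. Without the 2 libraries farthest from the Zc3h12a median, r was -0.33 (permutation p = 0.250). Within the 2 sequencing batches of the well table, r was -0.39 in the 9 libraries of SB341 (permutation p = 0.290) and -0.19 in the 6 of SB343 (exact permutation p = 0.711). No relation between both targets was therefore detectable at these counts.

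The remaining CCCH zinc finger members were rarer. Zc3h12b, encoding Regnase-2, had 34 UMIs, with a median of 3.15 CPM, a highest value of 8.77 in LSK library 13 and 0 UMIs in 2 libraries. Zc3h12d, encoding Regnase-4, had 17 UMIs, with a median of 1.34 and 0 UMIs in 6 libraries. Its highest value, 8.85 in LSK library 4, rested on 5 UMIs, the next highest library having 4. A count of 0 in a library allows up to 3 UMIs, which for LSK library 2, the shallowest, is 6.00 CPM, so libraries at 0 and libraries with a few UMIs cannot be told apart.

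N4bp1 was the most abundant member, with 347 UMIs and a median of 31.9 CPM, from 13.997 in LSK library 2 to 49.1 in LSK library 13. Khnyn followed with 194 UMIs and a median of 18.6, from 6.32 in LSK library 16 to 28.4 in LSK library 3. The ranges of N4bp1 and Khnyn overlapped, yet N4bp1 was the higher of the pair in 14 of 16 libraries. Khnyn was in turn above Zc3h12a in 14 of 16.

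Over all kept cells, the exact 95% Poisson intervals of N4bp1 (29.8 to 36.9 CPM), Khnyn (16.1 to 21.4) and Zc3h12a (7.19 to 10.9) did not overlap. Zc3h12a and Zc3h12c (5.82 to 9.22) did overlap, and Zc3h12a was the higher in 8 libraries, the lower in 4 and equal in 4. Zc3h12b (2.26 to 4.55) and Zc3h12d (0.949 to 2.61) also overlapped. The order was thus N4bp1, Khnyn, then Zc3h12a with Zc3h12c, and last Zc3h12b with Zc3h12d.

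**Figure D1:**
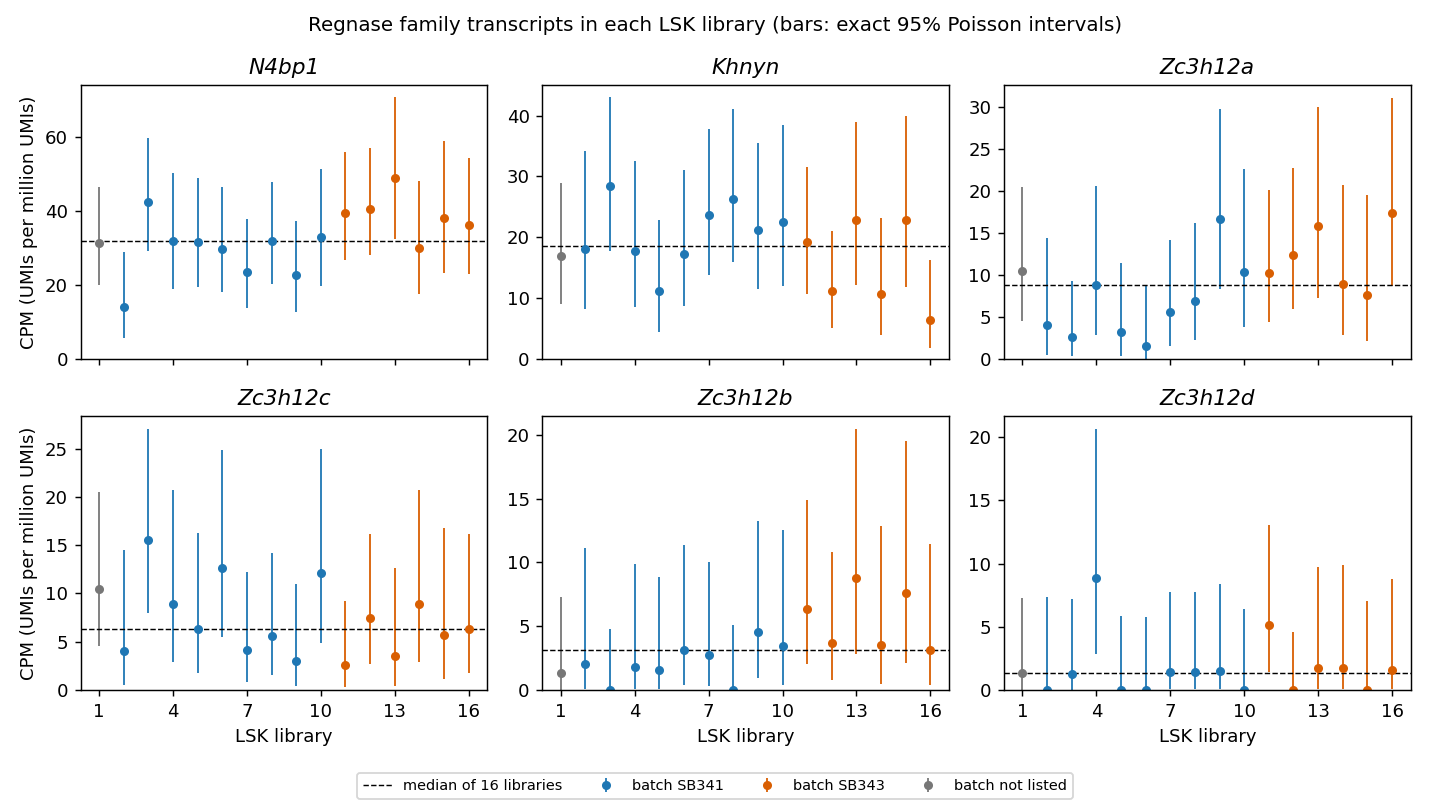
Each panel plots 1 gene's CPM (vertical axis) in each LSK library (horizontal axis), as points with exact 95% Poisson intervals, coloured by sequencing batch, with the median of the 16 libraries dashed. N4bp1 lies between 13.997 and 49.1, and Zc3h12d is at 0 in 6 libraries.

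The spread of the libraries was also described by an index of raw UMIs. The variance of UMIs over the 16 libraries divided by their mean, which is near 1 for pure counting at equal depth, was 2.24 for N4bp1, 1.91 for Zc3h12a, 1.86 for Khnyn and 1.64 for Zc3h12c. Differences in depth between libraries, from 500092 to 810096 UMIs, were not taken out of these values. They raise the index, so values above 1 do not by themselves show a spread beyond counting error. Zc3h12b was at 1.12 and Zc3h12d at 1.94.

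At the level of single cells the family was sparse. At least 1 UMI of any member was seen in 604 of 5157 cells (11.7%), and 41 cells held 2 members and 3 cells held 3. N4bp1 was seen in 284 cells (5.51%, 95% Wilson interval 4.92 to 6.16) and Khnyn in 176 (3.41%, 2.95 to 3.94). Zc3h12a was seen in 81 cells (1.57%, 1.27 to 1.95) and Zc3h12c in 65 (1.26%, 0.990 to 1.60), against 31 cells for Zc3h12b and 14 for Zc3h12d. Cells with N4bp1 had a median of 2510.5 UMIs, and cells without it 1525, so these shares depend on the depth of a cell.

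In cells of 500 to 1000 UMIs, N4bp1 was seen in 2.51%, and in cells of 4000 or more in 15.1%. As a level it stood at 38.3 CPM in the shallowest cells (Poisson interval 27.1 to 52.5), 28.8 in cells of 1000 to 2000 UMIs (22.9 to 35.8), 32.9 in cells of 2000 to 4000 and 36.5 in the deepest (29.7 to 44.4), and these intervals overlapped. Khnyn was likewise seen in 1.44% and 7.53% of these cells, at levels of 20.1, 22.2, 17.7 and 15.5 CPM from the shallowest to the deepest class. Zc3h12a stood at 17.1 CPM in cells of 500 to 1000 UMIs (17 UMIs, Poisson interval 9.97 to 27.4) and at 5.98 in cells of 1000 to 2000 (17 UMIs, 3.48 to 9.57). The deeper classes had 9.77 and 7.74, so its level did not follow depth in 1 direction.

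**Figure D2:**
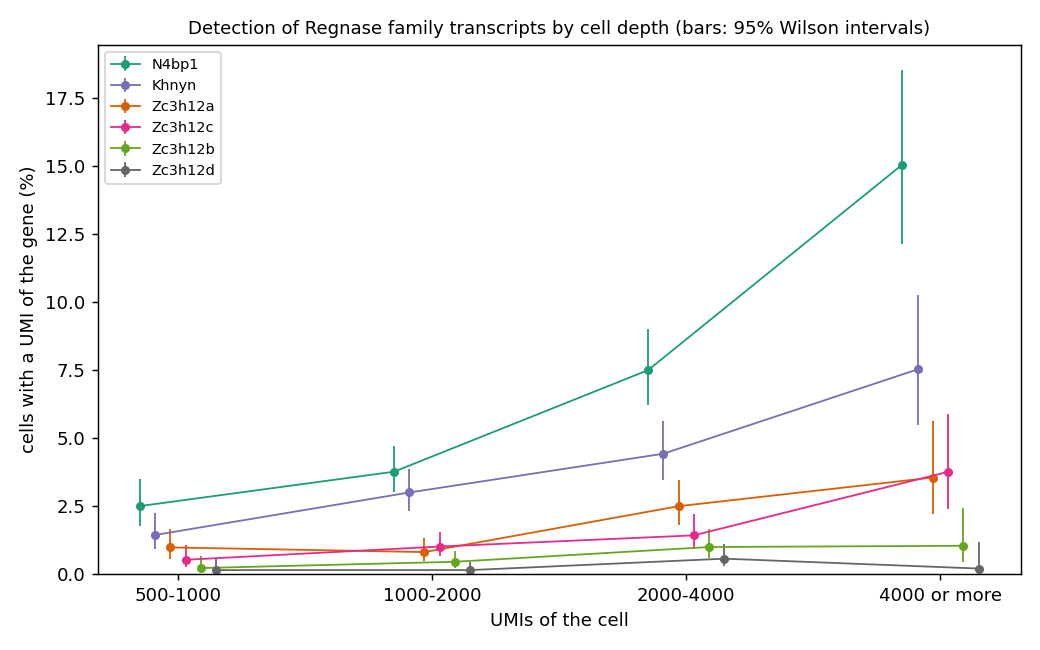
Share of cells with at least 1 UMI of each gene in percent (vertical axis) by the UMIs of the cell (horizontal axis, 4 classes), with 95% Wilson intervals. The share with N4bp1 goes from 2.51% in the shallowest to 15.1% in the deepest cells, and Zc3h12d stays under 1% in each class.

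UMIs of N4bp1 were gathered in fewer cells than an even spread over UMIs would give. Had its 347 UMIs been spread in proportion to depth, 330 cells would hold one, against 284 seen, and 51 cells held 2 or more. For Zc3h12a the figures were 91.7 and 81 cells, for Zc3h12c 76.1 and 65, and for Khnyn 188 and 176. Both knockout targets, Zc3h12a and Zc3h12c, occurred together in 1 cell, where spreading by depth would give 2.10. N4bp1 and Khnyn shared 15 cells against 18.2, and N4bp1 and Zc3h12c shared 9 against 7.42. Counts this small show neither joint nor exclusive expression.

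The 60 wells listed as empty held 0 UMIs of any member. Their 801 UMIs set a floor of 3745 CPM, far above every member's level, so they say nothing on how much of the signal is free RNA, and no cell type known to lack these genes was analysed here.

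The members were next compared between cells that had begun to express the genes of different blood lineages. A cell was placed in a gate when it held UMIs of at least 2 markers of that gate and at most 1 marker of each other gate. This placed 216 cells in a stem gate, 762 in a granule gate (neutrophil granule genes), 95 in a monocyte and dendritic gate, 549 in a lymphoid gate and 141 in a megakaryocyte and erythroid gate, and left 3394 in none. Of those 3394 cells, 2548 did not reach 2 markers of any gate. The others reached 2 markers of several gates: 636 cells of 2 gates, 196 of 3 and 14 of 4. The gates are sets of markers, not cell types, and they differed in depth: median UMIs were 2252 in the megakaryocyte and erythroid gate, 2031 in the granule gate and 1397.5 in cells with no gate. The monocyte and dendritic gate rests on Cst3, a widely expressed marker, and without it no library kept enough cells in that gate.

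N4bp1 was highest in the granule gate, at 44.1 CPM (78 UMIs, Poisson interval 34.9 to 55.0). It stood at 34.3 in the megakaryocyte and erythroid gate, 32.4 in the monocyte and dendritic gate, 24.5 in the stem gate and 21.5 in the lymphoid gate (24 UMIs, 13.8 to 32.1). The granule and lymphoid intervals did not overlap, while those of the other 3 gates overlapped both. In the cells placed in no gate, which include those that reached several, N4bp1 was at 32.8.

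Khnyn ran in another order. It was at 24.5 CPM in the stem gate, 23.3 in the lymphoid gate and 18.7 in the granule gate, with overlapping intervals. The lowest values were 10.8 in the monocyte and dendritic gate and 5.28 in the megakaryocyte and erythroid gate, each from 2 UMIs. The interval of the latter, 0.639 to 19.1, still overlapped those of the stem and lymphoid gates.

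The knockout targets had at least 1 UMI in every gate, but some gates held very few. In the monocyte and dendritic gate Zc3h12a had 1 UMI, and Zc3h12c had 2 UMIs in 1 cell. In the megakaryocyte and erythroid gate Zc3h12a had 3 UMIs and Zc3h12c had 1. Zc3h12a was at 12.2 CPM in the stem gate (5 UMIs), 9.05 in the granule gate (16 UMIs) and 3.59 in the lymphoid gate (4 UMIs). Zc3h12c was at 7.34 in the stem gate (3 UMIs), 5.09 in the granule gate (9 UMIs) and 5.39 in the lymphoid gate (6 UMIs). All 5 gate intervals of either gene overlapped.

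Zc3h12b had its highest level in the stem gate, at 17.1 CPM (7 UMIs, interval 6.89 to 35.3), against 1.70 in the granule gate (3 UMIs, interval 0.350 to 4.96). The 7 UMIs came from 4 cells in 4 libraries, 1 of which gave 3 of them, and the UMIs of a cell are not independent counts. Zc3h12d had 2 UMIs in the stem gate, 5 in the granule gate, 1 in the lymphoid gate and 0 in both remaining gates, where 0 allows up to 16.2 CPM for monocyte and dendritic and 7.92 for megakaryocyte and erythroid.

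**Figure D3:**
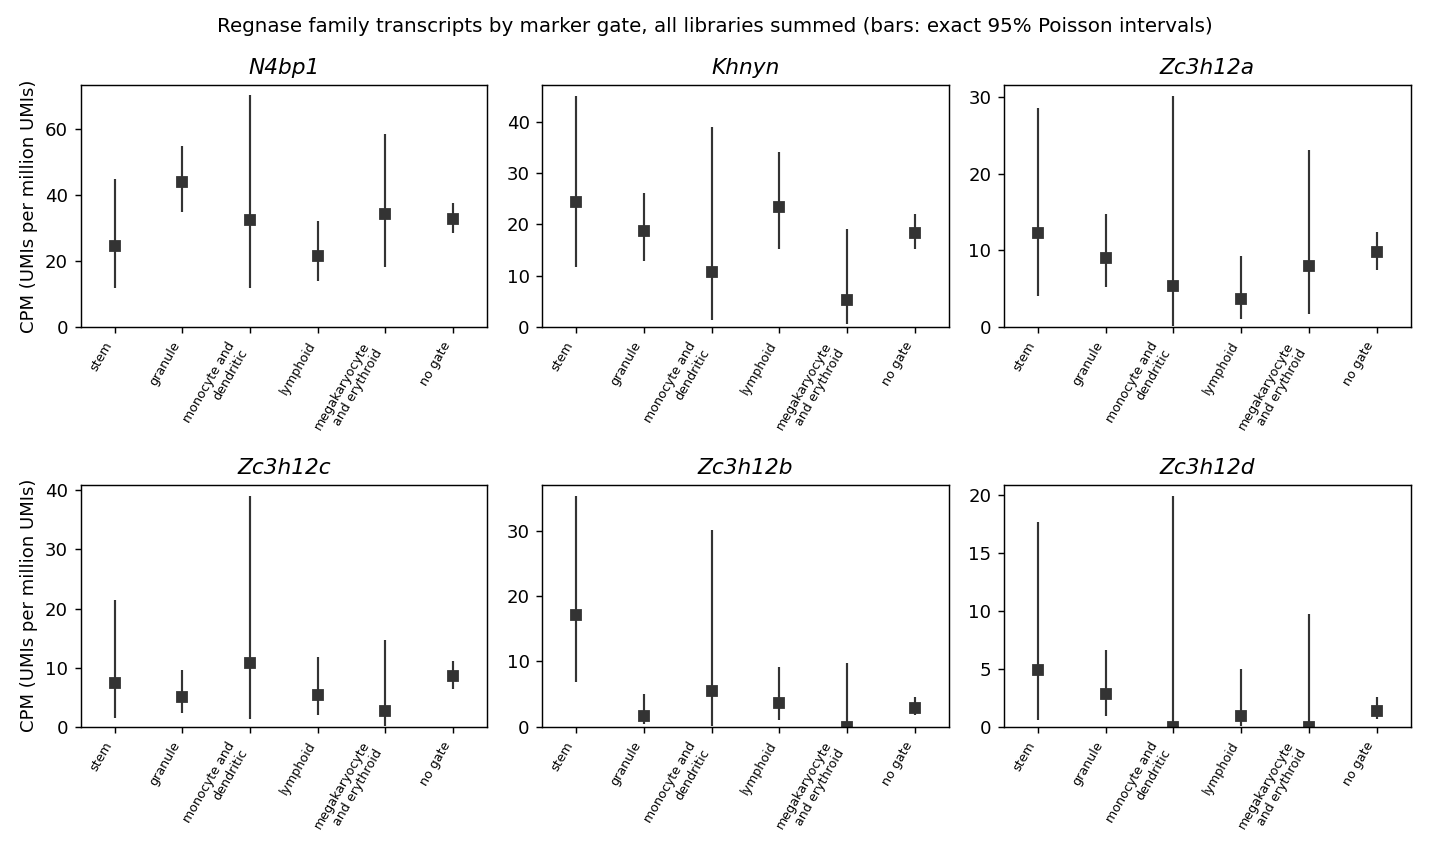
Each panel plots 1 gene's CPM (vertical axis) in the 5 marker gates and in cells with no gate, summed over all libraries, with exact 95% Poisson intervals. N4bp1 is at 44.1 in the granule gate and 21.5 in the lymphoid gate, and Zc3h12b is at 17.1 in the stem gate.

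To set these differences against the spread between libraries, UMIs were summed per library and gate where at least 5 cells were present, and the 69 sums were fitted with edgeR's quasi-likelihood test with the library as a block and Benjamini-Hochberg adjustment over all genes with at least 20 UMIs. In sums of cells, fewer cells of a type and less RNA per cell cannot be told apart. The labels do not say whether libraries came from separate mice, so p-values measure only the spread between libraries. Cells were gated by their own expression, which makes p-values of genes that vary with the markers too small.

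Of the 6 members, 4 had enough UMIs for the test (Zc3h12a, Zc3h12c, N4bp1 and Khnyn), and 0 of these 4 differed across the 5 gates, where 3.82% of all 10942 genes were called. At an unadjusted edgeR p under 0.05 the count was also 0, against 1633 of all genes. DESeq2 called 0 members and 309 of all genes, but gave 3 of the 4 members no adjusted p. The adjusted p of edgeR's quasi-likelihood test was 0.642 for N4bp1, 0.738 for Khnyn, 0.885 for Zc3h12a and 0.948 for Zc3h12c. Tested with no minimum, Zc3h12b reached an unadjusted p of 0.0389 and a Benjamini-Hochberg adjusted p of 0.485 in the same edgeR test, and Zc3h12d an adjusted p of 0.993.

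Against the stem gate, 0 of 4 tested members were called in the granule gate (0.749% of all genes), the monocyte and dendritic gate (0.101%), the lymphoid gate (1.47%) or the megakaryocyte and erythroid gate (0.896%), with 0 of these 4 at an unadjusted p under 0.05 in each. In the 4 gates, 996 to 1300 of all 10942 genes were under that unadjusted edgeR p. DESeq2 also called 0 members in each, and 5 to 118 of all genes. It gave no adjusted p to 3 of the 4 members in the granule gate, 2 in the lymphoid gate and all 4 in the megakaryocyte and erythroid gate. N4bp1 had a log2 fold change of 0.85 ± 0.62 (standard error) in the granule gate, with an edgeR adjusted p of 0.649. An interval of 2 standard errors runs from -0.38 to 2.09, so neither equality nor a 4-fold higher level lies outside it.

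The 2 rarest members could be fitted against the stem gate only with no minimum of UMIs, and neither was called. Zc3h12b then had a log2 fold change of -2.27 in the granule gate (unadjusted edgeR p = 0.0112, adjusted p = 0.499) and of -3.18 in the megakaryocyte and erythroid gate, where it had 0 UMIs (unadjusted edgeR p = 0.0193, adjusted p = 0.498). In the lymphoid gate it was at -1.42 and in the monocyte and dendritic gate at -0.40, each with an edgeR adjusted p of 1. These fitted values rest on the 7 UMIs of the stem gate and depend on edgeR's prior count. Zc3h12d was between -1.68 and -0.64 in the 4 gates, with an edgeR adjusted p of 1 in each.

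The same N4bp1 difference was 0.30 within SB341 and 4.45 within SB343. Over all SB343 cells the stem gate held 1 UMI of N4bp1. LSK library 14, with 2 stem-gated cells, did not enter the fit. The SB343 value has no usable standard error, so its size says little about the difference. Khnyn had a log2 fold change of -1.59 ± 1.21 in the megakaryocyte and erythroid gate (edgeR adjusted p = 0.499), resting on 2 UMIs there, and of 0.17 within SB343. Zc3h12a was at -1.07 ± 1.01 in the lymphoid gate (edgeR adjusted p = 0.669). For Zc3h12c the 4 fold changes ranged from -0.83 in the megakaryocyte and erythroid gate to 0.41 in the monocyte and dendritic gate, each with a standard error of 0.99 or more.

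The granule and lymphoid gates were the largest and had a sum in all 16 libraries, and their direct comparison was added after the members' levels had been seen. The lowest library had N4bp1 at 0 CPM in the granule gate, the median was 38.3 and the highest value 86.4. In the lymphoid gate it ranged from 0 to 55.1, with a median of 17.6. The ranges overlapped, and N4bp1 was the higher in the granule gate in 13 of 16 libraries and in the lymphoid gate in 3, LSK libraries 2, 6 and 15. Some of these orders rest on few UMIs. Granule and lymphoid UMIs were 1 and 0 in LSK library 4, and 2 and 2 in LSK library 5. LSK library 7 had 1 and 1, and LSK library 15 had 3 and 2. In LSK libraries 4, 8, 11, 13 and 14 the lymphoid gate held 0 UMIs. A count of 0 allows up to 3 UMIs, which is above the granule level in all of these but LSK library 8.

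The log2 fold change of N4bp1 between these gates was 0.84 ± 0.45, with an unadjusted edgeR p of 0.0440 and a Benjamini-Hochberg adjusted p of 0.620. The call therefore failed the correction over all genes, where 0.841% were called and 0 of the 4 tested members. The difference was 0.48 within SB341 and 0.80 within SB343, neither past the threshold. Khnyn was higher in the granule gate in 8 libraries and in the lymphoid gate in 8, with a log2 fold change of -0.29 ± 0.51. Zc3h12a and Zc3h12c had differences of 0.32 ± 0.86 and 0.02 ± 0.82. With no minimum of UMIs, Zc3h12b was at -0.85 and Zc3h12d at 0.26, with edgeR adjusted p of 0.996 and 1. DESeq2 gave none of the 4 tested members an adjusted p here.

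**Figure D4:**
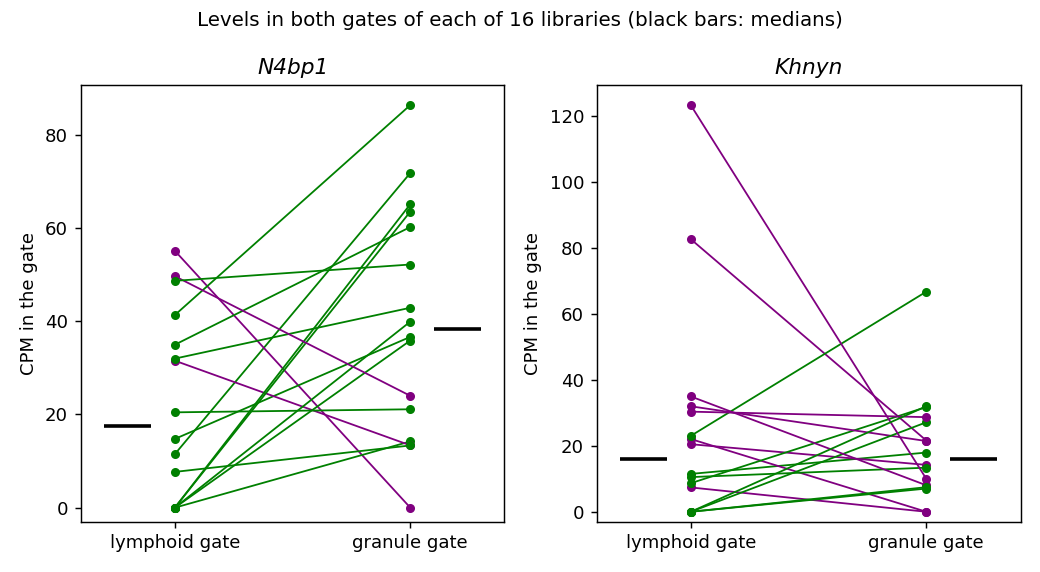
CPM of N4bp1 (left) and Khnyn (right) in the lymphoid and granule gates, with a line per library (16 libraries), green where the granule gate is higher and purple where the lymphoid gate is, and black bars at the medians. For N4bp1 13 lines rise to the granule gate and 3 fall, and for Khnyn 8 rise and 8 fall. Some lines rest on few UMIs, and N4bp1 had equal UMIs in both gates in LSK libraries 5 and 7.

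Of the libraries, 9 were sequenced in batch SB341 and 6 in batch SB343 by the well table, which lacks LSK library 1. Zc3h12a had a median of 5.56 CPM in SB341 (1.57 to 16.6) and 11.3 in SB343 (7.63 to 17.4). Zc3h12b had medians of 1.9996 and 5.04, and N4bp1 of 31.8 and 38.9. Khnyn went the other way, with medians of 21.2 and 15.1, and Zc3h12c stood at 6.35 and 6.02. The ranges of both batches overlapped for each of the 6 members.

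In the edgeR quasi-likelihood test of the 15 library sums, 0 of 5 tested members were called between batches, where 10.4% of all 13105 tested genes were. DESeq2 called 0 of the 5 as well, and 1289 of all genes. At an unadjusted edgeR p under 0.05 there was 1 of the 5, Zc3h12b, and 2780 of all 13105 genes. Zc3h12b had a log2 fold change of 1.23 ± 0.60 in SB343 against SB341 and an edgeR adjusted p of 0.193. Zc3h12a was at 0.78 ± 0.41 (edgeR adjusted p = 0.263) and N4bp1 at 0.33 ± 0.19 (edgeR adjusted p = 0.326). Khnyn was at -0.52 ± 0.28 and Zc3h12c at -0.57 ± 0.44, with adjusted p of 0.289 and 0.512 in the same edgeR test. Zc3h12d, fitted only with no minimum of UMIs, was at 0.08 (edgeR adjusted p = 0.963).

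The makeup of the libraries moved with the batch. Granule-gated cells were 6.03 to 17.01% of kept cells in SB341 and 17.3 to 27.0% in SB343, lymphoid-gated cells 7.76 to 19.4% and 4.11 to 7.5%. Megakaryocyte and erythroid-gated cells were 0.610 to 2.54% and 3.21 to 5.74%. None of these ranges overlapped between batches. The part of this makeup in the batch values was not tested, and what the batches differ in besides sequencing is not given.

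**Figure D5:**
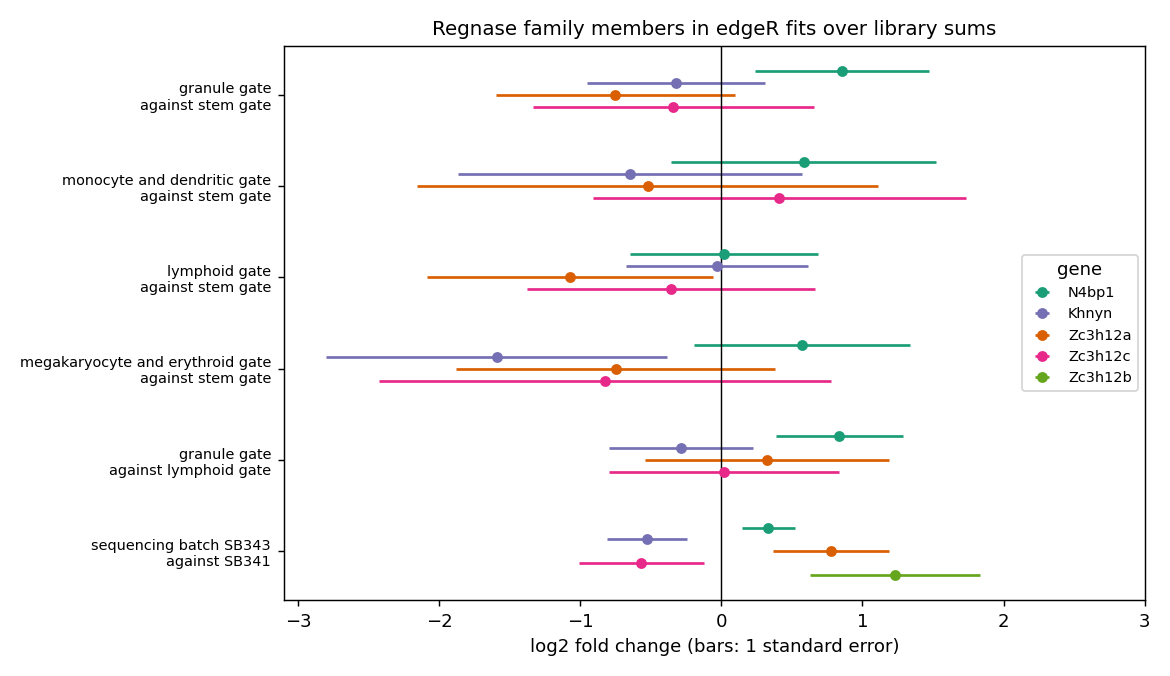
Log2 fold changes of the tested members (horizontal axis, bars of 1 standard error) in each comparison (vertical axis). N4bp1 lies at 0.85 for the granule against the stem gate and 0.84 for the granule against the lymphoid gate, and no plotted value passed the adjusted threshold.

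Other genes of the pathway were counted in the same fits. Of 12 regulators and partners of Regnase-1, all had UMIs and 11 were tested. Across the gates, and in any gate against the stem gate, 0 were called by edgeR or DESeq2. Across the gates edgeR called 3.82% of all 10942 genes and DESeq2 309 of them. At an unadjusted edgeR p under 0.05 there were 0 of the 11 across the gates, and 1633 of all genes. DESeq2 gave no adjusted p to 1 of the 11 across the gates and to 1 in the lymphoid gate. It gave none to 3 in the granule gate and 7 in the megakaryocyte and erythroid gate. The most abundant were Irak1, a kinase of the Toll-like receptor pathway, with a median of 137 CPM, and Usp10, a deubiquitinase that acts with TANK, with 59.5. Malt1, the protease that cleaves Regnase-1, was at 14.2, and Upf1, the helicase Regnase-1 works with, at 37.7.

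The 14 other mRNA decay factors were all more abundant than Zc3h12a. They were led by Hnrnpd (AUF1), at a median of 238 CPM, and Pum2, at 162. Across the gates edgeR called 0 of the 14, where it called 3.82% of all 10942 genes. At an unadjusted edgeR p under 0.05 there were 3 of the 14, and 1633 of all genes. DESeq2 called 1 of the 14, Zfp36l2 (adjusted p = 0.0379), and 309 of all genes, and gave 1 of the 14 no adjusted p. Zfp36l2, which binds AU-rich elements, fell in the lymphoid gate against the stem gate, with a log2 fold change of -1.25 ± 0.34 (edgeR adjusted p = 0.0183). It was called within neither batch, at -1.55 ± 0.45 within SB341 (edgeR adjusted p = 0.0792) and -0.29 ± 0.64 within SB343 (edgeR adjusted p = 0.959). Rc3h1 (Roquin-1), which shares stem-loop targets with Regnase-1, stood at 50.1 CPM and did not pass in any gate.

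Of 24 listed target mRNAs, 5 had no UMI in any kept cell (Il12b, Ctla4, Ptgs2, Cxcl1 and Ifng), 14 were tested and 2 were called across the gates by edgeR, Gata2 and Tfrc, where 3.82% of all genes were. At an unadjusted edgeR p under 0.05 there were 6 of the 14, and 1633 of all 10942 genes. DESeq2 called the same 2 across the gates, and 309 of all genes, and gave 5 of the 14 no adjusted p. It gave none to 8 in the granule gate, 4 in the lymphoid gate and 11 in the megakaryocyte and erythroid gate. Gata2, a stem and progenitor transcription factor, fell in the lymphoid gate against the stem gate, with a log2 fold change of -2.04 ± 0.37 (edgeR adjusted p = 4.39e-06). In the granule gate Gata2 was at -1.05 and in the megakaryocyte and erythroid gate at 1.11, with edgeR adjusted p of 0.0716 and 0.0516, and DESeq2 called both (adjusted p = 0.0366 and 0.0279). Tfrc, the transferrin receptor, was higher in the megakaryocyte and erythroid gate by 2.27 ± 0.61 (edgeR adjusted p = 0.00366), and its call in that gate ended without LSK library 15 (1.95, adjusted p = 0.0567) and within either batch. Its call across the gates held within SB343 (edgeR adjusted p = 0.000963) and ended within SB341 (edgeR adjusted p = 0.613). Leaving out 1 library also ended it (edgeR adjusted p = 0.0572). Tal1, the next most abundant target, had an edgeR adjusted p of 0.0881 across the gates. The relation of these targets to the RNases was not tested.

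Between the sequencing batches, 5 of 15 tested targets were called by edgeR and 4 by DESeq2, where edgeR called 10.4% of all 13105 genes and DESeq2 1289. Bcl3, Nfkbid and Tfrc (the last by edgeR alone) were higher in SB343, and Il1b and Il2 were lower. One regulator, Usp10, and 1 decay factor, Zfp36l2, were also higher there, of 11 and 14 tested. The call of Usp10 ended without LSK library 12 and without LSK library 16, with an edgeR adjusted p of at most 0.0632. Shares of megakaryocyte and erythroid-gated cells, the gate in which Tfrc was higher, also moved with the batch, and their part was not tested. The median log2 fold change of the tested targets was 0.31, that of the tested family members 0.33 and that of all genes tested -0.02. The family median is over 5 genes and is the value of N4bp1. Of these 5 genes 3 were above 0, Khnyn and Zc3h12c were below it, and 0 were called. Of the 15 targets 9 were above 0.

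Over the 16 libraries, the genes whose levels ranked most like N4bp1 among 9140 searched were Tle1 (Spearman rho 0.88), 2610507B11Rik (0.83) and Dach1 (0.81). For Khnyn they were Cyp2j9 (0.84), Tor4a (0.77) and Zbtb22 (0.76). The points share libraries, depth and gate makeup, and the genes were picked as the highest of all those searched, so the values are descriptions with no test.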

How the data were processed

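The authors deposited UMI counts per gene and well for 16 MARS-seq libraries, not normalized, and a well table with sequencing batches, per the labels and file headers. The submitters' processing notes name bcl2fastq 2.15.0.4 and the mm10 build. The aligner, counting tool, strand use and annotation behind the counts were not given in the sources used here. Members, gene lists and tests were chosen with earlier results of these data known.

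All 92 spike-in entries were left out. LSK library 1, absent from the well table, was filtered by UMIs and mitochondrial share alone. No doublet caller was run, since the well table gives no well more than 1 cell. UMIs were summed per library and gate (5 or more cells) and fitted with edgeR 4.0.16 in R 4.3.3 (quasi-likelihood F test, library block, genes with 20 or more UMIs, adjusted p under 0.05). The sums of a block came from the same plate, which is where the pairing comes from. The intervals, floors (3 counts) and sums came from Python 3.11.15.

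Scaling factors (TMM) were taken from the genes that pass filterByExpr and applied to all tested genes. This departs from the plan: factors were first taken over all tested genes. That version called 949 genes between the granule and stem gates, 924 of them higher, and most of its calls on simulated data were false. The change was made after its real results, members included, had been seen, and no member was called under either version. DESeq2 1.42.0 was an alternative. All 6 members are named in every comparison, Zc3h12b and Zc3h12d by fits with no minimum of UMIs where they had too few. From each of the other lists the 2 most abundant tested genes and any called across the gates are named, and further genes named from them were chosen after their values were seen. The GENCODE M21 annotation (GRCm38) gave positions and 3′ untranslated regions.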

Additional observations from a re-analysis of the deposited data

How the results depend on the processing

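No member was called under any of the 628 combinations of member, comparison and alternative, of which 615 gave an adjusted p, and these ran from 0.0720 to 1. The lowest was N4bp1 in the granule gate against the stem gate with TMM factors over all tested genes (log2 fold change 1.39). Some members were too sparse for a given alternative and have no value there. Directions of uncalled differences did turn, and the cause was not tested. With DESeq2, Zc3h12a was at 0.29 in the monocyte and dendritic gate, Zc3h12c at -0.48 in the granule against the lymphoid gate and N4bp1 at -0.035 in the lymphoid gate. With TMM factors over all tested genes, Zc3h12c was at 0.090 and Khnyn at 0.18 in the granule gate, and Khnyn at 0.34 in the lymphoid gate. Within SB343, Khnyn was at 1.02 in the granule, 1.63 in the lymphoid and 0.17 in the megakaryocyte and erythroid gate, and within SB341 N4bp1 was at -0.18 in the lymphoid gate. With no replicate block, N4bp1 was at -0.074 in the lymphoid gate and Zc3h12c at -0.063 in the granule against the lymphoid gate. Without Cst3 among the markers these were 0.19 for Khnyn in the lymphoid gate and -0.12 for Zc3h12c in the granule against the lymphoid gate, and at 3 or more markers Khnyn was at 0.37 in the latter.

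Counts of genes called were less stable, mostly where fewer cells, libraries or genes entered. The number called across the gates was 418 of 10942 tested. It was 5 of 2814 tested with cells thinned to 500 UMIs, 129 of 798 with filterByExpr, 110 of 8097 at 3 or more markers, 1742 of 10942 with TMM factors over all tested genes, 109 of 9190 within SB341 and 145 of 8249 within SB343. In the same order, the granule gate (82) gave 1, 41, 8, 949, 35 and 5, with 54 at 1000 or more UMIs per cell, and the lymphoid gate (161) gave 3, 40, 6, 584, 53 and 10. TMM factors over all tested genes turned the granule gate's split of 21 higher and 61 lower into 924 and 25, and the lymphoid gate's 53 and 108 into 525 and 59, and moved the median of all genes in the granule gate from -0.08 to 0.46. DESeq2 put that median at -0.31.

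The megakaryocyte and erythroid gate (98) gave 0 when thinned, 7 at 3 or more markers, 165 without Cst3, 20 within SB341 and 24 within SB343. The monocyte and dendritic gate (11) gave 0 when thinned, 5 with DESeq2, 6 with filterByExpr, 6 with no replicate block, 4 within SB341 and 5 within SB343. The granule against the lymphoid gate (92) gave 0 when thinned, 57 with DESeq2, 32 with filterByExpr, 36 at 3 or more markers, 10 within SB341 and 5 within SB343. The block changed no member's call.

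Leaving out each library in turn gave 336 to 403 genes across the gates, 50 to 79 for the granule gate (50 without LSK library 5 and 54 without LSK library 8), 8 to 15, 125 to 170 and 68 to 115 for the monocyte and dendritic, lymphoid, and megakaryocyte and erythroid gates, 74 to 88 for granule against lymphoid, and 1129 to 1420 for the batches. N4bp1 stayed between 0.66 and 1.12 for granule against lymphoid and between 0.67 and 1.41 for granule against stem. The signs that turned were those of N4bp1 in the lymphoid gate (-0.22 to 0.61), Khnyn in the lymphoid gate (-0.37 to 0.30) and for granule against lymphoid (-0.48 to 0.0077), and Zc3h12c in the granule gate (-0.48 to 0.13), in the lymphoid gate (-0.55 to 0.12) and for granule against lymphoid (-0.19 to 0.29). With mitochondrial and ribosomal protein genes left out of the denominator, the median level was 42.6 CPM for N4bp1 and 25.03 for Khnyn.

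The alternatives with no filter on low counts, without Cst3 and with TMM factors over all tested genes, and all those of the granule against the lymphoid gate, were chosen after seeing the data. At 3 or more markers, and without Cst3, no sum of the monocyte and dendritic gate was left. Depth limits the rest: Zc3h12b and Zc3h12d had too few UMIs in the gates for the main test.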
